A study of Rattus norvegicus with 6 samples.

Results

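The genes described here were 39 genes of DNA replication and S phase, chosen by gene symbol for their known roles, by a rule that uses no measured value. All 39 were among the 17833 genes of the deposited table, and all 39 reached the mean level at which 15150 genes were tested. Messenger RNA of the pulmonary vein (PV) was measured by bulk RNA sequencing in 3 banded rats and 3 rats given a sham operation. Bilateral pulmonary vein banding (BPVB) is a neonatal operation in which threads tied around the right and left PVs narrow them, and it was used as a model of pediatric pulmonary vein stenosis. The BPVB rats were banded on postnatal day 1, and the sham rats had the chest opened and a suture placed and withdrawn without banding. All 6 rats were wild-type Sprague-Dawley animals, and the vein of the right upper lung lobe was taken on postnatal day 21. Each library came from a separate rat, with the sex of the rats not given in the sources used here. The question of this comparison was which genes differ in the vein wall that thickens after banding.

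A cell copies its DNA once in each division. In G1 the origin recognition complex, CDC6, and CDT1 load the ring-shaped MCM helicase onto DNA, and at the start of S phase CDC45 and the GINS complex join the ring and switch it on. DNA polymerases, the sliding clamp PCNA, and its loader RFC then copy both strands, RPA coats the single-stranded DNA, and ribonucleotide reductase and thymidylate synthase make the nucleotides that are used. Many of these genes are transcribed by E2F factors near the G1/S border, whereas genes of mitosis are mostly transcribed later, in G2, under the control of the DREAM and MYB-FOXM1 complexes. In a vessel wall most cells are outside the cycle, so the transcripts of a whole-tissue sample come from a mixture of cycling and resting cells.

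The depth of the libraries, recovered from the table, was 23439506 to 29725808 fragments, and the mean BPVB library was 1.16 times as deep as the mean sham library. Levels were given as FPKM, fragments scaled by transcript length and by library depth, so that levels of different genes could be set side by side per length. Genes were called higher or lower at a Benjamini-Hochberg adjusted p below 0.05 in limma, fitted over all tested genes on log2(FPKM + 0.5). A fold change on that scale understates the change of a gene with a low level. Markers of smooth muscle, endothelium, fibroblasts, and cardiomyocytes were present in all 6 libraries. Several marker lists moved with the operation. The summed level of 7 alveolar type 2 markers was 533 to 579 FPKM in BPVB and 60.3 to 61.3 in sham with all 7 called higher, and that of 8 macrophage markers was 679 to 700 against 227 to 237 with 7 called higher. Lyz2 made up most of the macrophage sum, with means of 592 and 163 FPKM. Its ratio of means was 3.63, against 1.35 to 2.24 for the other called macrophage markers and 0.939 for Cd163. The 6 cardiomyocyte markers summed to 12100 to 12500 against 16500 to 16800, with 2 called higher and 4 lower. The 5 smooth muscle markers summed to 3830 to 3870 against 4160 to 4240 with 4 called lower, and the 5 endothelial markers to 869 to 884 against 962 to 969 with 3 called lower. Of 5 fibroblast markers 3 were called higher and 2 lower, of 8 erythroid markers 4 were called lower, of 5 tested neutrophil markers 3 were called lower, of 9 lymphocyte markers 1 (Cd4) was called higher, and of 4 tested airway markers 1 (Scgb1a1) was called higher. The part of these cell types in the levels of the replication genes was not tested.

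Most replication genes did not differ detectably between BPVB and sham veins, and the 8 that did went in both directions. The 5 higher members were the ribonucleotide reductase subunit Rrm2, thymidine kinase Tk1, the chromatin factor Uhrf1, the helicase subunit Mcm7, and the histone mRNA binder Slbp. The uracil glycosylase Ung, cyclin E1 (Ccne1), and the large RPA subunit Rpa1 were lower. The 8 called members were 20.5% of the 39, where 31.5% of all tested genes were called. The background was 17.2% for calls higher in BPVB and 14.3% for calls lower. The median log2 fold change of the 39 members was -0.08, and that of all tested genes was 0.02. Among the 4202 tested genes with a mean level between the quartiles of the members, 1.64 to 7.43 FPKM, 24.7% were called and the median log2 fold change was 0.04. In bulk tissue, fewer cells of a type and less RNA per cell cannot be told apart.

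The study's thresholds, an adjusted p below 0.05 together with an absolute log2 fold change above 1, were applied here to the limma fit. Rrm2 was the 1 member counted, where 3.27% of all tested genes passed in either direction and 2.24% in the direction of a rise. The study applied its thresholds to DESeq2 on counts, so these are not its counts of genes. Ccne1, with a ratio of sham to BPVB means of 2.98, was called but had a log2 fold change of -0.69 on the log2(FPKM + 0.5) scale. The upper bound of the 95% interval of the log2 fold change was below 1 for 36 of the 39 members, the exceptions being Rrm2, Uhrf1, and Cdc45. Among all tested genes it was below 1 for 14256 of 15150. The whole interval lay between -1 and 1 for 35 members and for 13767 of the 15150 tested genes. In both counts the members were close to all tested genes. The 3 rats of each group did not overlap in 13 members, with 6 higher and 7 lower in BPVB, where the groups did not overlap in 45.6% of all tested genes. The mean log2 level of the 39 members was between 2.06 and 2.13 in all 6 libraries.

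**Figure D1:**
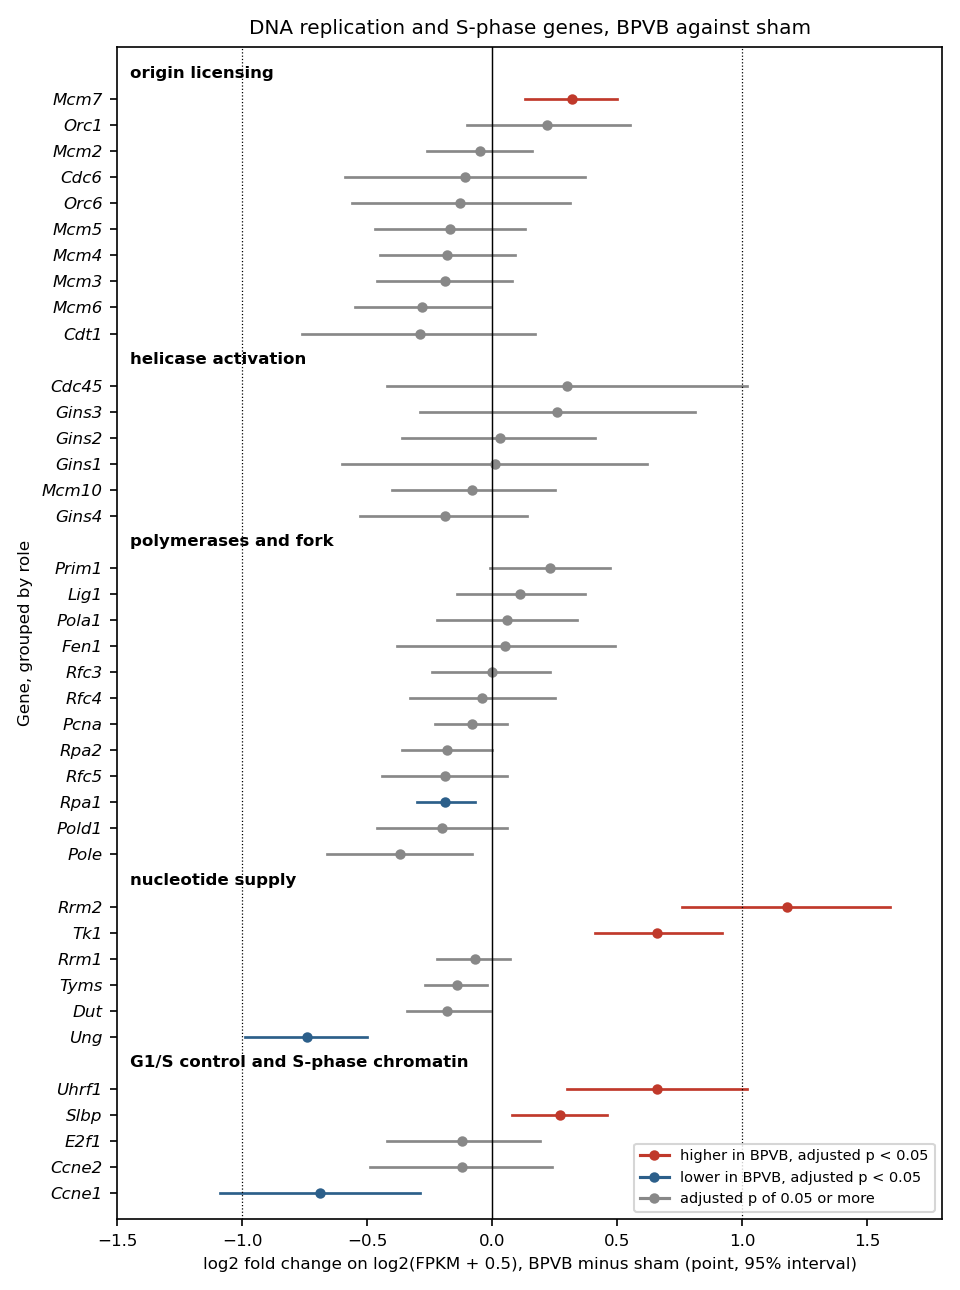
Log2 fold change of each of the 39 replication genes, BPVB minus sham, on the log2(FPKM + 0.5) scale, with genes grouped by role on the vertical axis, points for estimates, and lines for 95% intervals (3 rats per group). Most intervals span 0, the 5 red genes lie to the right of it and the 3 blue genes to the left, and Rrm2 alone lies beyond the dotted line at 1.

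Promoter sequences were read for the members from RefSeq (rat assembly GRCr8), since this set of genes is known for its E2F sites. Of the 39 members 32 were matched, and Mcm4, Rrm2, Gins4, Cdc6, Orc1, Ccne2, and E2f1 were not matched. The 250 bases before each transcription start were searched on both strands for the E2F motifs TTTCCCGC, TTTGGCGC, TTTCGCGC, and TTTGCCGC, and for the cell cycle homology region (CHR) motifs TTTGAA and TTCGAA, which mark many mitotic genes. TTTCGCGC overlaps its own reverse complement, and TTCGAA equals its own. An E2F motif was present for 11 of the 32 members (34.4%), against 1.91% of all 27457 genes with a promoter in the table. A CHR motif was present for 7 of the 32 members (21.9%), against 18.5% of all genes. For 26 matched genes of mitosis and G2 the shares were 3.85% for the E2F motif and 53.8% for the CHR motif. They were 21.6% and 19.6% for 51 other replication genes and 21.4% and 42.9% for 14 regulators of the E2F, RB, and DREAM families. Within the members, an E2F motif was present for 3 of 4 matched genes called higher, 1 of 3 called lower, and 7 of 25 not called, so that called and uncalled genes both held it.

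The 150 bases before the start are given here for 8 members, 5′ to 3′ on the strand of the gene, with E2F motifs in capitals. Uhrf1 and Tk1 are shown as called members with the largest rises of those matched, Ung, Ccne1, and Rpa1 as the 3 members called lower, and Mcm7, Mcm2, and Mcm6, which are subunits of the same helicase and differed in their values, were added after the values were seen. The windows on GRCr8 were chr12:22163179-22163328 (minus strand) for Mcm7, chr4:122918095-122918244 (minus strand) for Mcm2, chr13:42404353-42404502 (minus strand) for Mcm6, chr9:1223036-1223185 (plus strand) for Uhrf1, chr12:48154046-48154195 (minus strand) for Ung, chr10:103544778-103544927 (minus strand) for Tk1, chr1:99927910-99928059 (minus strand) for Ccne1, and chr10:60698280-60698429 (minus strand) for Rpa1.
Mcm7: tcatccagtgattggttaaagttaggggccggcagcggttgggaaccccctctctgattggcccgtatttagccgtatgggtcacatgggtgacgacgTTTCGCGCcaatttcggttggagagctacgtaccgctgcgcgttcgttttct
Mcm2: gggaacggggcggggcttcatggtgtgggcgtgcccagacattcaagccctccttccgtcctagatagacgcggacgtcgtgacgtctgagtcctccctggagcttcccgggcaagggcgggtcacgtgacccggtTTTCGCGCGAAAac
Mcm6: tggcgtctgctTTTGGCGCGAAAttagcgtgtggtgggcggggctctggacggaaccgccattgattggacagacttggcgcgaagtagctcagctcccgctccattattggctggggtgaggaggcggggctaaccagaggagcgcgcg
Uhrf1: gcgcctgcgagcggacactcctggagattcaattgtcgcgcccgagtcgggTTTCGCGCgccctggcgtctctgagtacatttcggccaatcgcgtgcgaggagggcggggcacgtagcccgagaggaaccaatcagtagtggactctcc
Ung: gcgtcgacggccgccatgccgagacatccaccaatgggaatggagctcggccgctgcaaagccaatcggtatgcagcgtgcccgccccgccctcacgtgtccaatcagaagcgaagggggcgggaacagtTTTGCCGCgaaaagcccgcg
Tk1: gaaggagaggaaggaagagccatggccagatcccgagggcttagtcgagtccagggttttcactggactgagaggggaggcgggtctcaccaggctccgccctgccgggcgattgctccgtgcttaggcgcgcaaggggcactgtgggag
Ccne1: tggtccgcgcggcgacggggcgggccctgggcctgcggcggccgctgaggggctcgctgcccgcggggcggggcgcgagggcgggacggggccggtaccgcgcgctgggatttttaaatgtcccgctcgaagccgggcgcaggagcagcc
Rpa1: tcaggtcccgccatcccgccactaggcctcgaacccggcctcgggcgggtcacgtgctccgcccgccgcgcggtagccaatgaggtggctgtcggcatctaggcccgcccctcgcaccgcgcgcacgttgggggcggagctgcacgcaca
The Uhrf1 window shown is 1 of 3 starts listed for the gene and the only one of them with the motif. In Mcm2 a motif and its reverse complement ended 7 and 3 bases before the start, and in Mcm6 the overlapping pair began 139 and 135 bases before it. Mcm7 had a motif 52 bases before the start and another at 233, outside the stretch shown, and Uhrf1 had motifs at 99 and at 193. In Ung the motif began 20 bases before the start. The windows of Tk1, Ccne1, and Rpa1 held none of these letters in the 250 bases searched. A match of letters is a description and not a measured site.

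Of the 10 members that license origins, Mcm7 alone was called (10.0%, against 31.5% of all tested genes), and the median log2 fold change of the 10 was -0.15. Mcm7 encodes 1 of the 6 subunits of the MCM2-7 ring. Its level was 14.6, 13.6, and 14.4 FPKM in the BPVB rats and 10.5, 10.7, and 12.8 in the sham rats. Every BPVB rat was above every sham rat. The log2 fold change was 0.32 (SE 0.082, adjusted p = 0.017), a ratio of means of 1.25. The call was lost when BPVB replicate 1 or 3 or sham replicate 1 or 2 was left out (adjusted p = 0.055, 0.052, 0.06, and 0.058). Mcm7 overlaps the microRNA genes Mir25, Mir93, and Mir106b in the RefSeq table, and the strand setting of the counting was not given in the sources used here, so reads of overlapping genes cannot be told apart.

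The other 5 subunits of the ring were not called and all had estimates below 0. Mcm2 was at 6.13, 5.49, and 6.53 FPKM in BPVB and 5.78, 6.26, and 6.78 in sham (log2 fold change -0.05, 95% interval -0.26 to 0.16). Mcm3 was at 2.76, 2.82, and 2.83 against 3.34, 2.75, and 3.78, with a log2 fold change of -0.19 and an interval of -0.46 to 0.08. In both genes the rats of the groups overlapped. Mcm4 was at 5.93, 7.68, and 7.68 FPKM in BPVB and 7.03, 8.57, and 8.69 in sham (-0.18, interval -0.45 to 0.09). Mcm5 was at 2.3, 2.93, and 2.42 against 2.44, 3.16, and 3.19 (-0.17, interval -0.47 to 0.13). The sham and BPVB rats overlapped in these genes too. With 1 library left out the estimates were -0.295 to -0.096 for Mcm3, -0.275 to -0.066 for Mcm4, and -0.276 to -0.109 for Mcm5. Mcm6 was at 5.33, 4.36, and 4.16 FPKM in BPVB and 5.23, 6.55, and 5.38 in sham (-0.28, adjusted p = 0.11). In Mcm6 only BPVB replicate 1 reached the sham range, and without that rat the adjusted p was 0.048 with a log2 fold change of -0.38.

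The 6 subunit levels together summed to 37.3 ± 0.6 FPKM (SD, n = 3) in BPVB and 37.7 ± 3.2 in sham. Mcm7 was the most abundant subunit transcript in all 6 libraries. Its share of the sum was 39.5%, 37.0%, and 37.9% in BPVB and 30.6%, 28.3%, and 31.6% in sham. The groups did not overlap in this share. Means were 38.1 ± 1.3% and 30.1 ± 1.7%, and the two-sided exact permutation p was 0.1, the smallest that 3 against 3 rats can give, with an adjusted p of 0.4 over the 6 subunits. The shares were compared after the values were seen. The ratio of the highest to the lowest subunit was 4.83 to 6.38 in BPVB and 3.91 to 4.29 in sham.

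**Figure D2:**
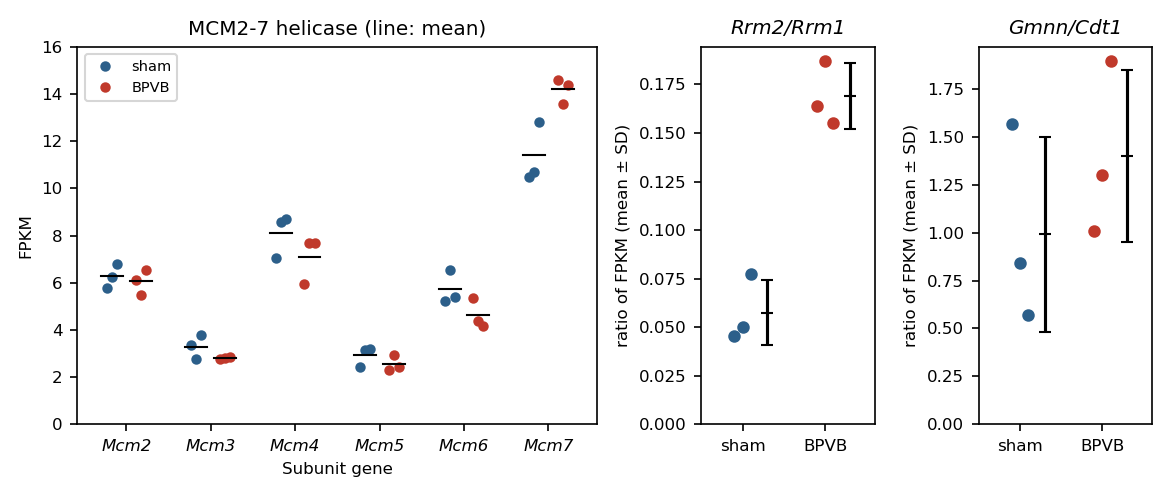
Left, FPKM of the 6 MCM2-7 subunit genes in each rat with lines at the group means. Right, the ratios Rrm2/Rrm1 and Gmnn/Cdt1 in each rat with mean ± SD. Mcm7 is the highest subunit in both groups and the 1 subunit higher in BPVB, the Rrm2/Rrm1 ratio is 0.155 to 0.187 in BPVB and 0.0454 to 0.0773 in sham, and the Gmnn/Cdt1 ratios of the groups overlap.

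The loaders of the ring had low levels. Cdt1, which brings the helicase to origins and is destroyed in S phase, was at 2.21, 1.39, and 1.07 FPKM in BPVB and 1.62, 2.04, and 2.25 in sham. The groups overlapped, and the log2 fold change was -0.29 (interval -0.76 to 0.17), from -0.513 without BPVB replicate 1 to -0.118 without BPVB replicate 3, with no call in either fit (adjusted p = 0.056 and 0.70). Geminin (Gmnn), which holds CDT1 inactive outside G1, was at 2.22, 1.81, and 2.02 against 2.53, 1.72, and 1.28 and was not called (adjusted p = 0.63). The ratio of Gmnn to Cdt1 was 1.01, 1.3, and 1.9 in BPVB and 1.57, 0.844, and 0.568 in sham. Means of this ratio were 1.4 ± 0.45 and 0.992 ± 0.51, and it did not differ detectably (two-sided exact permutation p = 0.4, adjusted p = 0.4 over 2 ratios). Orc1, the cell cycle-regulated subunit of the origin recognition complex, was at 0.297, 0.278, and 0.322 FPKM in BPVB and 0.263, 0.155, and 0.138 in sham. Its groups did not overlap, but it rested on 10 to 29 fragments per library and was not called (log2 fold change 0.22, adjusted p = 0.27). Cdc6, the loading ATPase, rested on 16 to 46 fragments (-0.11, interval -0.59 to 0.37), and Orc6 had a log2 fold change of -0.13 (interval -0.56 to 0.31).

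None of the 6 members that activate the helicase was called in limma, at an adjusted or an unadjusted p below 0.05, or in limma-voom on recovered fragments, and their median log2 fold change was 0.02. Of all tested genes 31.5% were called in limma. Cdc45, which joins MCM2-7 to make the active helicase, had the largest standard error of the 39 members (0.32). It was at 0.482, 1.63, and 2.1 FPKM in BPVB and 1.01, 1.04, and 0.763 in sham, from 29, 96, and 141 against 54, 55, and 41 fragments. BPVB replicate 1 lay below all sham rats and the other BPVB rats above them. The log2 fold change was 0.30 (interval -0.42 to 1.02, adjusted p = 0.52), and leaving out BPVB replicate 1 gave 0.72 (adjusted p = 0.015). The GINS subunits Gins1 to Gins4 had log2 fold changes of 0.01, 0.03, 0.26, and -0.19, and Mcm10, which also takes part in helicase activation, had -0.08. The estimates of Gins1 and Gins2 changed sign under quantile normalization. With 1 library left out Gins3 ranged from 0.025 (without sham replicate 2) to 0.522 (without sham replicate 3) and Gins4 from -0.34 (without BPVB replicate 1) to -0.07 (without BPVB replicate 3), and neither was called in any of these fits. GINS levels summed to 8.22 ± 1.4 FPKM in BPVB and 8.54 ± 0.82 in sham, and Gins4 was the highest of the 4 in all 6 libraries.

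Of the 12 members at the polymerases and the fork, Rpa1 alone was called (8.33%, against 31.5% of all tested genes), and the median log2 fold change was -0.06. Rpa1, the large subunit of the protein that coats single-stranded DNA, was at 21.8, 23.6, and 22.4 FPKM in BPVB and 24.9, 25.7, and 26.8 in sham. All BPVB rats were below all sham rats by a small margin, and the log2 fold change was -0.19 (SE 0.051, adjusted p = 0.023). The call was lost without BPVB replicate 1 or 3 or sham replicate 2 or 3 (adjusted p = 0.072, 0.064, 0.055, and 0.08). Rpa1 overlaps Fbxo5-ps1 in the RefSeq table, where 13 of the 39 members overlap another gene. Rpa2, the middle subunit, was at 4.57, 4.94, and 4.61 against 5.4, 5.44, and 5.31 and had nearly the same estimate (-0.18, adjusted p = 0.12). Its groups did not overlap either, and it was not called. Rpa3, the small subunit and not a member, was not called (-0.12, adjusted p = 0.27). The 3 RPA levels summed to 50.7 ± 1.0 FPKM in BPVB and 56.6 ± 2.8 in sham.

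Pole, the catalytic subunit of the leading-strand polymerase, was at 0.461, 0.467, and 0.506 FPKM in BPVB and 0.702, 0.752, and 0.844 in sham. The groups were apart, from 89 to 147 fragments per library, and the log2 fold change was -0.37 (adjusted p = 0.054). It passed the threshold in 5 of 15 alternatives, where its adjusted p was 0.023 to 0.15 over all of them. Pold1, the catalytic subunit of the lagging-strand polymerase, had -0.20 (adjusted p = 0.23). Pola1 and Prim1, subunits of the DNA polymerase alpha-primase that starts each strand, had 0.06 and 0.23 and were not called. Prim1 was at 11.7, 13.3, and 12.1 FPKM in BPVB and 11.9, 11, and 8.78 in sham. The groups overlapped in Prim1 through BPVB replicate 1 and sham replicate 1.

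Pcna, the sliding clamp and a common histological marker of proliferation, was the most abundant member. It was at 55.0, 51.4, and 62.6 FPKM in BPVB and 59.0, 60.0, and 59.3 in sham. The BPVB rats lay on both sides of the sham rats, and the log2 fold change was -0.08 (interval -0.23 to 0.06, adjusted p = 0.38). BPVB replicate 3 was the high value, and leaving it out gave -0.16 (adjusted p = 0.032). Leaving out BPVB replicate 2, the low value, gave -0.018 (adjusted p = 0.85). The clamp loader subunits Rfc3, Rfc4, and Rfc5 had log2 fold changes of 0.00, -0.04, and -0.19. The flap nuclease Fen1 and the ligase Lig1, which join Okazaki fragments, had 0.05 and 0.11. With 1 library left out the estimate of Lig1 was 0.018 to 0.249. None of these 5 genes was called, and the small estimates of Pola1 and Fen1 changed sign under quantile normalization and that of Rfc3 under TPM.

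Nucleotide supply and uracil removal held the 3 members with the smallest p-values. Rrm2 encodes the small, cell cycle-regulated subunit of ribonucleotide reductase, the enzyme that makes deoxyribonucleotides. It was at 3.03, 3.52, and 2.94 FPKM in BPVB and 0.829, 0.972, and 1.67 in sham. All BPVB rats were well above all sham rats, with sham replicate 3 the highest sham value. The log2 fold change was 1.18 (SE 0.18, interval 0.76 to 1.59, adjusted p = 0.0013), a ratio of means of 2.74. Rrm2 overlaps Cys1 in the RefSeq table.

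Rrm1, the large subunit of the same enzyme, was at 18.5, 18.8, and 18.9 FPKM in BPVB and 18.3, 19.5, and 21.6 in sham (log2 fold change -0.07, interval -0.22 to 0.07). The Rrm2/Rrm1 ratio was 0.164, 0.187, and 0.155 in BPVB and 0.0454, 0.0499, and 0.0773 in sham. Transcripts of the large subunit thus exceeded those of the small subunit in all 6 rats, and the ratio did not overlap between the groups. Means were 0.169 ± 0.017 and 0.0575 ± 0.017, a 2.93-fold difference. The two-sided exact permutation p was 0.1, the smallest this design allows, and the adjusted p was 0.2 over 2 ratios. The ratio is taken within each library and does not depend on scaling between libraries.

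Tk1, the S-phase thymidine kinase of the salvage pathway, was at 3.63, 3.12, and 3.11 FPKM in BPVB and 1.81, 2.06, and 1.79 in sham. The groups were far apart, with a log2 fold change of 0.66 (SE 0.11, adjusted p = 0.0019) and a ratio of means of 1.74. Tyms, thymidylate synthase, which makes the same nucleotide de novo, was at 13.4, 13.8, and 13.9 FPKM in BPVB and 15.4, 15.8, and 14.4 in sham. The BPVB rats were all below the sham rats in Tyms, but the gene was not called (-0.14, adjusted p = 0.084), and it passed the threshold under median of ratios scaling and limma-voom (adjusted p = 0.048 and 0.045). Dut, the dUTPase that keeps uracil out of DNA, had a log2 fold change of -0.18 (adjusted p = 0.1). Dut overlapped between the groups.

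Ung, the glycosylase that removes uracil from DNA and is produced at the G1/S border, was the member with the lowest log2 fold change on the log2(FPKM + 0.5) scale, whereas Ccne1 had the lower ratio of means. It was at 2.99, 2.32, and 2.85 FPKM in BPVB and 4.74, 5.0, and 4.86 in sham. Every BPVB rat was well below every sham rat, and the log2 fold change was -0.74 (SE 0.11, interval -0.99 to -0.50, adjusted p = 0.00081). Ung had the smallest adjusted p of the 39 members. The calls of Rrm2, Tk1, Uhrf1, and Ung were kept in all 16 alternatives.

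Of the 5 members of G1/S control and S-phase chromatin, 2 were called higher and 1 lower (60.0%, against 31.5% of all tested genes). Uhrf1, which reads hemimethylated DNA behind the fork and recruits DNMT1, was at 1.92, 2.48, and 1.68 FPKM in BPVB and 1.04, 1.32, and 0.92 in sham. The groups did not overlap, and the log2 fold change was 0.66 (SE 0.16, adjusted p = 0.012). Dnmt1, the maintenance methyltransferase, was not called (0.14, adjusted p = 0.23). Uhrf1 overlaps Arrdc5 in the RefSeq table.

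Ccne1, cyclin E1, which with CDK2 starts S phase, was at 0.312, 0.225, and 0.148 FPKM in BPVB and 0.7, 0.459, and 0.884 in sham, from 17, 12, and 9 against 34, 22, and 43 fragments. All BPVB rats were below all sham rats at this low depth. The log2 fold change was -0.69 (SE 0.18, adjusted p = 0.017), and it was lost without BPVB replicate 3, sham replicate 1, or sham replicate 3 (adjusted p = 0.055, 0.052, and 0.061). The size of the estimate depended on the pseudocount, at -0.45 with 1 and -1.24 with 0.1, and limma-voom on the recovered fragments gave -1.57. Ccne2, cyclin E2, was at 2.33, 2.26, and 1.87 FPKM in BPVB and 1.85, 3.05, and 2.37 in sham and was not called (-0.12, adjusted p = 0.60). Cyclin E2 transcripts were more abundant than cyclin E1 transcripts in all 6 rats. E2f1, an activating E2F factor, was at 1.01, 1.2, and 1.35 against 1.25, 1.23, and 1.51, with overlapping groups and a log2 fold change of -0.12 (interval -0.42 to 0.19).

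Slbp, which binds the stem-loop of replication-dependent histone mRNA and rises in S phase, was at 15.0, 15.6, and 15.2 FPKM in BPVB and 13, 13.9, and 11 in sham. All BPVB rats were above all sham rats, and the log2 fold change was 0.27 (SE 0.083, adjusted p = 0.038). The call was lost in 7 of 16 alternatives, namely no filter on low values, median of ratios scaling, and each library left out except sham replicate 2 (adjusted p = 0.054 to 0.098). Of 38 histone genes matched by symbol 27 were tested, with 4 called higher, 1 called lower, and the median at 0.04 on the log2 scale. The called share was 18.5%, against 31.5% of all tested genes. Hist1h2bd, called lower, was at 0.392, 1.2, and 0.264 FPKM in BPVB and 1.32, 2.46, and 1.43 in sham, from 3 to 22 fragments per library (-1.05, adjusted p = 0.029). Hist2h2aa3 was at 4, 2.41, and 3.14 against 1.28, 2.03, and 2.16 (0.66, adjusted p = 0.033). The groups did not overlap in these genes. The linker histones H1f10 and H1f2 were called higher with 0.47 (adjusted p = 0.018) and 0.16 (adjusted p = 0.0087). The histone genes named were chosen after their values were seen. Histone genes have near-identical copies between which reads can be split, and most replication-dependent histone mRNAs end in a stem-loop in place of a poly(A) tail, so these values are uncertain.

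**Figure D3:**
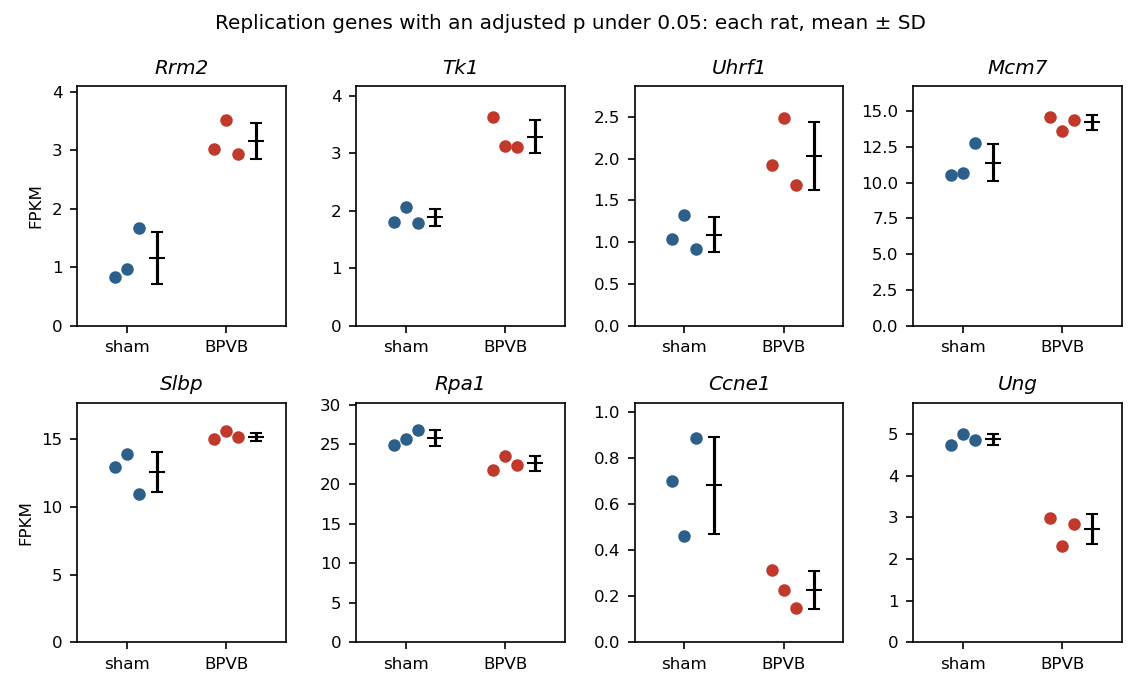
FPKM of the 8 called members in each rat (points, sham in blue and BPVB in red) with mean ± SD beside them, each panel with its own axis from 0. The groups do not overlap in any of the 8 panels, with Rrm2, Tk1, Uhrf1, Mcm7, and Slbp higher and Rpa1, Ccne1, and Ung lower in BPVB.

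The other genes of the replication pathway, 59 by list, were counted in the same fit. Of the 58 in the table, 4 were called higher (Pold4, Clspn, Pclaf, and Top1) and 6 lower (Fam111a, Nme1, Pola2, Rnaseh2b, Dtymk, and Ctps1). The called genes were 17.2% of the list, where 31.5% of all tested genes were called in either direction. The median log2 fold change was -0.04. None of the 16 licensing and firing factors was called in limma, with 3 at an unadjusted p below 0.05 and 1 called lower in limma-voom. Pclaf, a PCNA-associated factor, was at 9.11, 7.83, and 11.7 FPKM in BPVB and 5.68, 3.59, and 1.89 in sham (1.34, adjusted p = 0.0088). Clspn, claspin, which links the fork to the checkpoint kinase CHK1, was at 0.932, 0.938, and 1.27 against 0.448, 0.413, and 0.381 (0.75, adjusted p = 0.0035). The BPVB rats were above the sham rats in both. Nme1, a nucleoside diphosphate kinase, was at 16.2, 9.5, and 13.6 FPKM in BPVB and 19.8, 20.7, and 21.1 in sham (-0.66, adjusted p = 0.012). Fam111a, a protease that binds PCNA and is needed for replication past protein adducts, was at 3.4, 3.64, and 3.76 FPKM in BPVB and 79.1, 76.0, and 79.8 in sham (-4.27, adjusted p = 7.2e-10). The estimate for Fam111a was the lowest log2 fold change of all tested genes.

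Of 19 regulators of the E2F, RB, and DREAM families, 2 were called higher and 1 lower, and the median of the 19 was 0.13 on the log2 scale. The called share was 15.8%, against 31.5% of all tested genes. Foxm1, which drives transcription of G2 and mitotic genes, was at 2.74, 1.69, and 2.22 FPKM in BPVB and 1.42, 0.988, and 1.04 in sham (0.71, adjusted p = 0.013). E2f8, an atypical E2F that represses E2F targets late in S phase, was at 0.67, 0.314, and 0.576 against 0.168, 0.178, and 0.239 (0.54, adjusted p = 0.041), and its call was lost in 7 of 15 alternatives, including each left-out library except BPVB replicate 2 (adjusted p up to 0.12). E2f6, a repressor, was at 37.6, 37, and 37.2 against 42, 40.8, and 44.1 and was called lower (-0.18, adjusted p = 0.0098). All 3 had groups that did not overlap.

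The genes of G2 and mitosis stood beside these lists with another pattern of values. All 30 on the list were called higher in BPVB, where 17.2% of all tested genes were. The median log2 fold change was 1.2. In the limma fit 21 passed the study's thresholds, where 2.24% of all tested genes rose past them. Top2a, the topoisomerase that separates sister chromatids, was at 8.65, 8.2, and 9.04 FPKM in BPVB and 3.04, 2.46, and 2.93 in sham (1.47, adjusted p = 7.1e-06). Kif20a, a kinesin of the mitotic midzone, was at 7.12, 6.6, and 7.88 against 1.51, 2.64, and 1.98 (1.62, adjusted p = 8.6e-05). In both genes every BPVB rat was above every sham rat. Cdc20, an activator of the anaphase-promoting complex, was at 8.87, 10.6, and 9.18 FPKM in BPVB and 2.3, 3.34, and 3.93 in sham (1.47, adjusted p = 0.00016). Nuf2, a kinetochore protein, was at 5.04, 4.17, and 5.09 against 1.23, 1.15, and 2.21 (1.41, adjusted p = 0.00056). The groups of all 30 genes did not overlap, where they did not overlap in 45.6% of all tested genes. The mean log2 level of the 30 genes was 2.26 to 2.30 in BPVB and 1.13 to 1.16 in sham, whereas that of the 39 replication genes was 2.06 to 2.13 in all 6 rats. Summed levels of the replication genes were 260 to 274 FPKM in BPVB and 271 to 276 in sham, and those of the G2 and mitotic genes were 154 to 159 and 58.4 to 60.6. The difference between the lists was described and not tested, both lists come from the same 6 libraries, and both were chosen with earlier results of these libraries known.

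**Figure D4:**
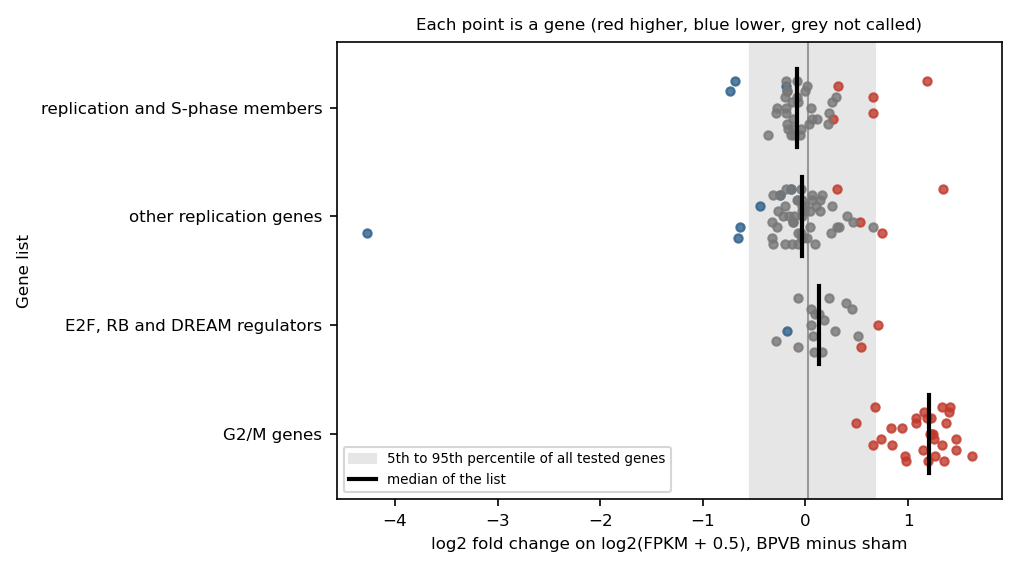
Log2 fold change (BPVB minus sham) of each gene of 4 lists, with red points for genes called higher, blue for genes called lower, and grey for genes not called. Black bars are the medians of the lists (-0.08, -0.04, 0.13, and 1.2 from top to bottom), and the grey band spans the 5th to 95th percentile of all tested genes. The G2/M genes are all red, and most genes of the other lists are grey.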

How the data were processed

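Gene symbols, FPKM values, and annotation were taken from the deposited table of the 6 libraries. The authors made the deposited FPKM values, and the submitters' processing notes name HISAT2 2.0.5, StringTie 1.3.3b, featureCounts 1.5.0-p3, and DESeq2 1.20.0, with no roles. The study's methods name fastp, HISAT, and HTSeq-count and another library kit than the labels. The genome build, annotation, and strand setting were not given in the sources used here. Whole fragment numbers and library totals were solved from the FPKM values, and 100.0% of the 17833 genes came out whole within a relative tolerance of 1e-09.

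Genes whose FPKM averaged 0.1 or more were tested with limma 3.58.1 (R 4.3.3) on log2(FPKM + 0.5), two-sided, with a trended prior and Benjamini-Hochberg adjustment over all 15150 genes. The study tested counts with DESeq2, which was not applied to FPKM here. Ratios were compared with exact permutation tests in scipy 1.17.1. The fit was tested on simulated data. Groups and replicate numbers came from the sample titles. Full values were given for called members, Mcm2 to Mcm7, and members of set roles, and from the other replication, regulator, and G2/M lists for up to 4 called genes with the largest change. The members, whose rule names roles only, and the lists were chosen with earlier results of these data known. The 16 alternatives covered the pseudocount, the filter, scaling, TPM, a replicate block, robust moderation, limma-voom on fragments, and leaving out each library. The labels do not say that a number pairs a BPVB rat with a sham rat, and p-values measure the spread between 3 rats per group.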

Additional observations from a re-analysis of the deposited data

How the results depend on the processing

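None of the 8 called members changed direction in the 16 alternatives run, or 15 for Ccne1, which is below the filter of 1 FPKM, and the 30 G2/M genes were called higher in all 16 alternatives. With other settings the number of members called lower was 5 under median of ratios scaling and under limma-voom, against 3. The number of members past the thresholds of the study was 0 with a pseudocount of 1, 2 with 0.1, and 2 under limma-voom, against 1. The median log2 fold change of the members was -0.16 under quantile normalization, against -0.08. Of the E2F and DREAM regulators, 1 was called higher under quantile normalization, with the replicate block, and with the filter raised to 1 FPKM, against 2, and 2 were called lower under quantile normalization and limma-voom, against 1. Over all genes limma-voom called 3027 higher and 2559 lower of 16413, against 2605 and 2170 of 15150. The causes of these shifts were not tested, except that the higher filter tests fewer genes.

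With 1 library left out, 3 to 4 members were called higher and 1 to 3 lower, with 3 higher without BPVB replicate 3 or sham replicate 1 and 1 lower without sham replicate 3. The E2F and DREAM regulators called higher were 1 to 3, with 1 without BPVB replicate 3, sham replicate 1, or sham replicate 3. The Rrm2/Rrm1 fold was 2.65 to 3.54 and the Gmnn/Cdt1 fold 1.16 to 1.99.

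Log2 fold changes of uncalled genes near 0 changed sign. Gins1 was -0.008 under median of ratios scaling, -0.092 under quantile normalization, and -0.004 under limma-voom. Under quantile normalization Gins2 was -0.095, Pola1 -0.016, and Fen1 -0.014, and Rfc3 was 0.026 under TPM and 0.001 under limma-voom. With 1 library left out the ranges were -0.102 to 0.014 for Mcm2, -0.17 to 0.006 for Mcm10, -0.237 to 0.275 for Gins1, -0.085 to 0.194 for Gins2, -0.294 to 0.041 for Cdc6, -0.36 to 0.048 for Orc6, -0.035 to 0.148 for Pola1, -0.084 to 0.085 for Rfc3, -0.181 to 0.058 for Rfc4, -0.09 to 0.232 for Fen1, -0.272 to 0.026 for Ccne2, and -0.045 to 0.339 for Gmnn.

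The replicate block left 5 members called higher and 3 lower. Samples with the same number correlated at 0.025, 0.014, and 0.015 in their deviations from the group means, against -0.022 to 0.006 for samples with different numbers. Each correlated best with its own number, but all values were near 0, a pairing was not tested, and none is given by design. Among the members, depth limits Ccne1 and Orc1 most, at 9 to 43 and 10 to 29 fragments per library. For these genes a change of moderate size was not detectable or not precisely sized.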

Other observations

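Further genes of the replication list are given here, chosen after their values were seen. Pola2, the regulatory subunit of DNA polymerase alpha, was at 6.16, 6.42, and 5.6 FPKM in BPVB and 9.21, 10.9, and 9.16 in sham (log2 fold change -0.64, adjusted p = 0.00071 in limma), while its catalytic partner Pola1 had 0.06. Pold4, the small subunit of DNA polymerase delta, was at 18.7, 21.4, and 19.7 against 15.1, 13.7, and 12.1 (0.53, adjusted p = 0.0016). Top1, which relaxes supercoils ahead of forks, had 0.31 (adjusted p = 0.0048). Rnaseh2b, a subunit of the enzyme that removes ribonucleotides from DNA, had -0.44 (adjusted p = 0.0087). The groups did not overlap in Pola2, Pold4, Top1, or Rnaseh2b.

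Asf1b, a histone chaperone, was at 1.87, 1.27, and 0.859 FPKM in BPVB and 0.903, 0.495, and 0.536 in sham and was not called (log2 fold change 0.66, adjusted p = 0.051), with overlap through BPVB replicate 3 and sham replicate 1. Rrm2b, the stress-induced small subunit of ribonucleotide reductase, had 0.06 (adjusted p = 0.64), where Rrm2 had 1.18.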
